A study of Mus musculus with 14 samples.

Results

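The genes described here are Tnf, its receptors Tnfrsf1a and Tnfrsf1b, the adaptors Traf1 and Traf2, the ubiquitin ligases Birc2 and Birc3, and Tnfaip2. They are 8 of the 47937 genes of the deposited count table, taken by symbol, and all 8 passed the filter on low counts in these libraries. The 14 sequenced libraries hold poly(A) RNA from macrophages that were grown from mouse bone marrow and are all labelled wild type. Cells had been given supernatant of mast cell intracellular traps (trap supernatant) for 3.5 h (3 libraries), mast cell supernatant for 3.5 h (5 libraries), or had been left untreated (6 libraries). The labels put the libraries in 3 batches, with 1 trap library in each, 2, 1 and 2 mast cell supernatant libraries in batches 1, 2 and 3, and 2 untreated libraries in each. They do not say whether replicates were separate cultures or animals, nor how many mice, so the p-values measure the spread between these libraries, which may be technical.

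TNF is made as a membrane protein and released by proteolytic cleavage, and in macrophages it is among the first cytokines transcribed after an inflammatory stimulus. Its receptor TNFR1 (Tnfrsf1a) is found on most cell types and can signal to NF-kB or to cell death, while TNFR2 (Tnfrsf1b) is found mainly on immune cells, has no death domain and binds TRAF2 directly. TRAF2, TRAF1 and the ligases cIAP1 (Birc2) and cIAP2 (Birc3) form the ubiquitin-conjugating part of the receptor complexes. Traf1, Birc3, Tnfaip2 and Tnf itself are known NF-kB target genes.

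Total counts ran from 11729073 to 22720419 per library. The 8 macrophage markers summed to between 8200 and 19396 counts per 1000000 counts of a library (CPM, scaled by the trimmed mean of M values) with supernatant and to between 8343 and 17980 CPM in untreated libraries. Most of the range of this sum came from Lyz2, and 2 other markers moved with supernatant. Mertk, a receptor for uptake of dying cells, was lower with both supernatants (log2 fold change -0.83 ± 0.173 with trap, adjusted p = 0.0328, and -0.90 ± 0.147 with mast cell supernatant, adjusted p = 0.00422) and in each batch. Cd14, a co-receptor for bacterial lipopolysaccharide, was higher in batch 1 (0.68 ± 0.0822, adjusted p = 9.92e-05) and batch 2 (0.47 ± 0.0889, adjusted p = 0.0118), with 0.08 ± 0.081 in batch 3 (adjusted p = 0.639). Their part in the results was not tested. One macrophage marker was close to absent from a whole batch. Lyz2, the lysozyme gene of myeloid cells, had 10071 to 10886 CPM with supernatant and 9983 to 10171 CPM untreated in batch 1, and 4795 to 5205 CPM with supernatant and 4720 to 4725 CPM untreated in batch 2. In batch 3 it had 0.0829 to 0.17 CPM with supernatant and 0.0599 to 0.0616 CPM untreated. The labels give wild type for all batches and do not say what a batch is. Results are therefore given within each batch, and a difference between batches in genotype, or in anything else, cannot be told apart from batch itself. In the untreated libraries alone, 33.6% of the 13061 genes tested differed among the 3 batches, and 4 of the 8 genes described here were among them (Tnfrsf1b, Traf1, Birc3 and Tnfaip2). All 8 macrophage markers also differed among the batches in this test.

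Per kilobase of exon, Tnfrsf1b was the most abundant of the 8 mRNAs in untreated macrophages, at 209.6 ± 49.4 CPM per kb (SD, n = 6). Tnfaip2 followed at 153 ± 31.7 and Tnf at 124.5 ± 13.5 CPM per kb, and the untreated ranges of these neighbours overlapped. Tnfrsf1a had 64.7 ± 3.82 and Birc3 27.4 ± 3.7 CPM per kb, each apart from its neighbours in that order. Traf1 (8.76 ± 2.77), Traf2 (7.67 ± 0.678) and Birc2 (4.85 ± 0.382 CPM per kb) were lowest, and the ranges of Traf1 and Traf2 overlapped. With supernatant Tnf reached 634.9 CPM per kb in its highest library, above the highest value of any other of the 8 genes.

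**Figure D1:**
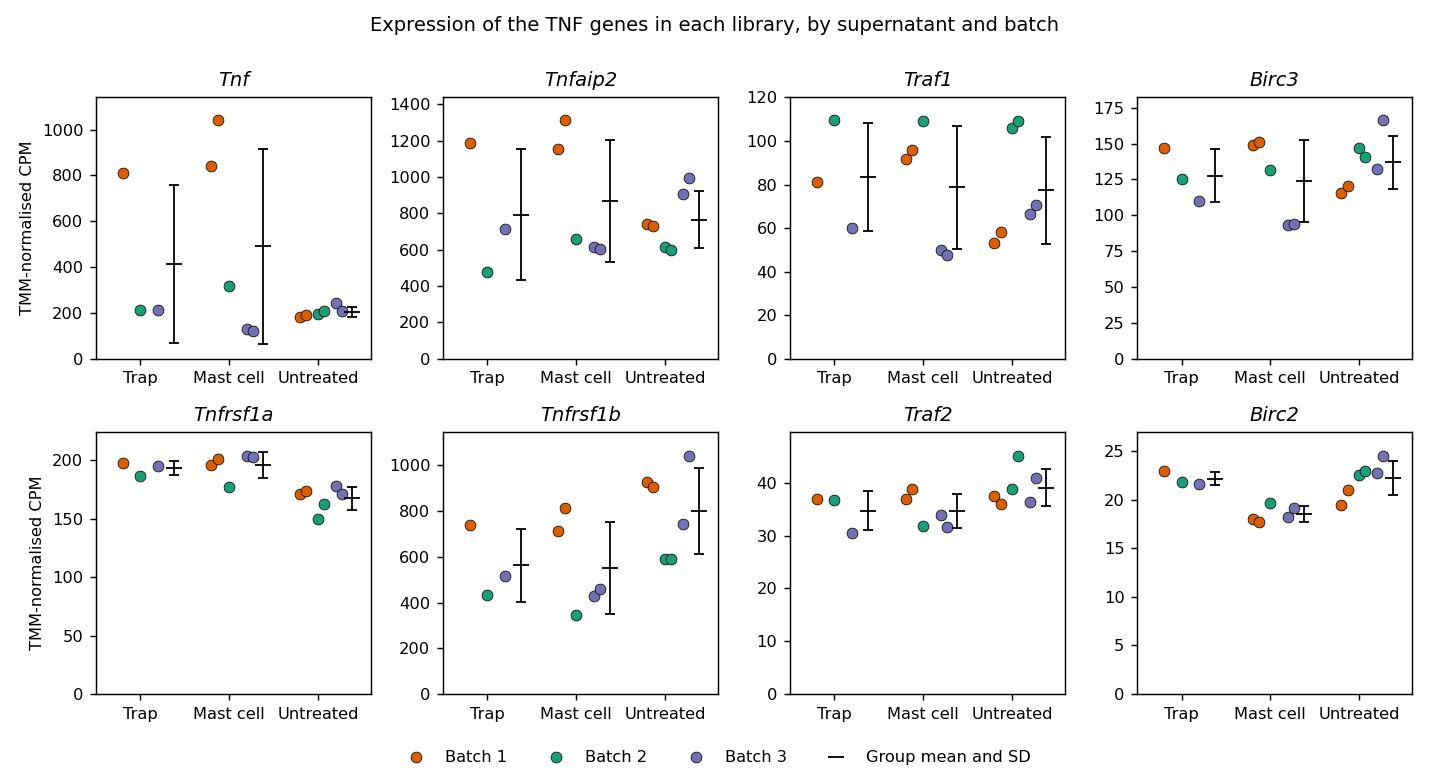
TMM-normalised CPM (y axis, from 0) of each gene in each library, by group (x axis: trap supernatant, mast cell supernatant, untreated) and batch (colour); black marks give the group mean and SD (n = 3, 5 and 6). Tnf is at 812 to 1041 CPM in the 3 supernatant libraries of batch 1 and at most 318 CPM in all others, while Tnfrsf1b is lower with supernatant than untreated in every batch.

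Tnf, which encodes the ligand, rose in batch 1 and did not pass the test in the other batches. In batch 1 it had 812 CPM with trap supernatant and 841 and 1041 CPM with mast cell supernatant, against 179 and 190.1 CPM untreated. In batch 2 it had 214 CPM with trap supernatant and 318 CPM with mast cell supernatant, against 196 and 207 CPM untreated. In batch 3 it had 212 CPM with trap supernatant and 130.3 and 119 CPM with mast cell supernatant, against 243 and 209 CPM untreated. The groups did not overlap in batches 1 and 2; in batch 3 the trap library lay within the untreated range and both mast cell supernatant libraries below it. The untreated libraries stayed between 179 and 243 CPM throughout, and their difference among batches had an adjusted p of 0.69.

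Any supernatant against untreated gave Tnf a log2 fold change of 2.28 ± 0.277 (SE) in batch 1, a 4.86-fold difference, with an adjusted p of 0.00151 in edgeR's quasi-likelihood test adjusted over all 13061 genes. Batch 2 gave 0.40 ± 0.281 (adjusted p = 0.76) and batch 3 gave -0.56 ± 0.256 (adjusted p = 0.243). The responses differed among the 3 batches (adjusted p = 0.00721), and the response was 2.84 ± 0.369 higher on the log2 scale in batch 1 than in batch 3 (adjusted p = 0.00224). Without untreated replicate 1 or 4, the untreated libraries of batch 1, the test over the 3 batches no longer passed (adjusted p up to 0.0581). The batch 2 and batch 3 values were called with no filter on low counts and with 9 means of batch by group, and the batch 3 value also without trap supernatant replicate 3 (-0.86). With the batches averaged, Tnf differed by 0.58 ± 0.546 with trap supernatant (adjusted p = 0.745) and by 0.65 ± 0.5 with mast cell supernatant (adjusted p = 0.531), and neither passed the test. Without batch 1 these values were -0.01 for trap and -0.19 for mast cell supernatant.

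In batch 1, 4 of the 8 genes were called, all higher: Tnf, Traf1, Birc3 and Tnfaip2. Over all genes tested, 7.56% were called in that batch. In batch 2 none of the 8 was called, where 1.19% of all genes were. In batch 3, 5 of the 8 were called, where 8.41% of all genes were: Tnfrsf1a was higher, and Tnfrsf1b, Traf1, Birc3 and Tnfaip2 were lower. For batches 1, 2 and 3, the 8 genes had median log2 differences of 0.27, -0.11 and -0.47, beside -0.01, -0.01 and 0.00 over all genes tested.

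**Figure D2:**
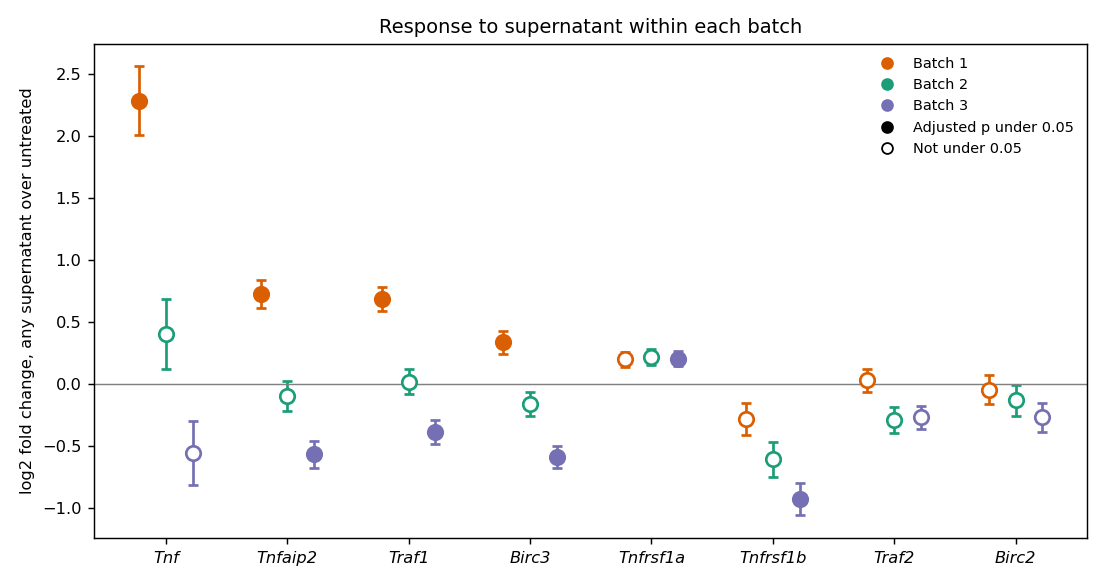
Log2 fold change of any supernatant over untreated (y axis) for each gene (x axis) in batches 1 to 3 (colour); bars are the SE and filled points have an adjusted p under 0.05. Tnf, Tnfaip2, Traf1 and Birc3 are above 0 in batch 1 and below 0 in batch 3, whereas Tnfrsf1a is at 0.20 to 0.22 in every batch.

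Of the receptors, Tnfrsf1a was higher with supernatant by a like amount in each batch: 198, 186 and 195 CPM with trap supernatant in batches 1, 2 and 3, against 171 and 173, 150.2 and 162, and 178 and 171 CPM in the untreated libraries of the same batches. With mast cell supernatant it had 196 and 201 CPM in batch 1, 178 CPM in batch 2 and 204 and 203 CPM in batch 3. In each batch every supernatant library lay above both untreated libraries, although the groups overlapped slightly when batches were pooled. The log2 fold change was 0.21 ± 0.0455 for trap supernatant (adjusted p = 0.0293) and 0.21 ± 0.0395 for mast cell supernatant (adjusted p = 0.00579), or 1.15-fold in each. Within batches it was 0.20, 0.22 and 0.20, with adjusted p of 0.0548, 0.153 and 0.0492, and the difference among batches had an adjusted p of 0.993. The mast cell supernatant call was lost with no batch term, with the replicate block and without batch 1 (adjusted p up to 0.206). The trap call was lost in 12 of 23 alternatives, among them leaving out any 1 trap library, mast cell supernatant replicate 1 or untreated replicate 1, 2 or 4 (adjusted p up to 0.143). The batch 3 call was lost in 13 of 19. The batch 1 value was called by DESeq2, by limma-voom and in 3 of 14 fits that left out 1 library.

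Tnfrsf1b was lower with supernatant. It had 739 CPM with trap and 715 and 814 CPM with mast cell supernatant in batch 1, against 929 and 907 CPM untreated. In batch 2 it had 432 CPM with trap and 344 CPM with mast cell supernatant, against 589 and 592 CPM untreated. In batch 3 it had 518 CPM with trap and 431 and 458 CPM with mast cell supernatant, against 742 and 1042 CPM untreated. No supernatant library reached the untreated libraries of its batch, in any of the 3. The log2 fold change was -0.67 ± 0.127 with mast cell supernatant (adjusted p = 0.0118) and -0.52 ± 0.147 with trap supernatant (adjusted p = 0.125), and the direct comparison of trap with mast cell supernatant gave 0.14 ± 0.15 (adjusted p = 1). Taken batch by batch, the change was -0.28 ± 0.129 for batch 1 (adjusted p = 0.229), -0.61 ± 0.144 for batch 2 (adjusted p = 0.068) and -0.93 ± 0.129 in batch 3 (adjusted p = 0.000829). The difference among batches did not pass the test (adjusted p = 0.135), and the single contrast of batch 1 with batch 3 did (0.65 ± 0.185, adjusted p = 0.0467), a call kept in 8 of 19 alternatives. The batch 2 value was called by DESeq2, with no filter, with 9 means of batch by group and in 4 of 14 fits that left out 1 library. The difference among batches was called by DESeq2, with no filter and without untreated replicate 3. The mast cell supernatant call was lost without batch 2 and with no batch term (adjusted p up to 0.537), and the trap value was called by DESeq2 and without untreated replicate 6. Per kilobase, the ratio of Tnfrsf1b to Tnfrsf1a mRNA was 2.48 to 2.75 with supernatant and 3.55 to 3.68 untreated in batch 1, 1.31 to 1.57 with supernatant and 2.47 to 2.66 untreated in batch 2, and 1.43 to 1.8 with supernatant and 2.84 to 4.14 untreated in batch 3, so it was lower with supernatant in each batch without overlap.

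Of the adaptors, Traf1, which pairs with TRAF2 and is induced through NF-kB, rose in batch 1 and fell in batch 3. In batch 1 it had 81.1 CPM with trap and 91.6 and 96 CPM with mast cell supernatant, against 53 and 58.2 CPM untreated. In batch 2 it had 109.5 CPM with trap and 109 CPM with mast cell supernatant, against 106 and 109.3 CPM untreated. In batch 3 it had 60 CPM with trap and 49.9 and 47.4 CPM with mast cell supernatant, against 66.5 and 70.4 CPM untreated. The groups were apart in batches 1 and 3, in opposite directions, and overlapped in batch 2, where untreated Traf1 was highest. The log2 fold change was 0.69 ± 0.0961 in batch 1 (adjusted p = 0.000296) and -0.38 ± 0.0958 in batch 3 (adjusted p = 0.0183), and the response differed among batches (adjusted p = 0.000631). The batch 3 call was lost without mast cell supernatant replicate 3 or 5 or untreated replicate 6 (adjusted p up to 0.149). The untreated level also differed among batches (adjusted p = 4.7e-06).

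Traf2, the adaptor that both receptor complexes use, did not pass the test in any comparison. With supernatant it had 30.5 to 38.9 CPM (median 35.4, n = 8), and untreated it had 36 to 45.2 CPM (median 38.2, n = 6). In batches 2 and 3 every supernatant library lay below the untreated ones, with log2 differences of -0.29 ± 0.102 (adjusted p = 0.248) and -0.27 ± 0.0948 (adjusted p = 0.0928), and in batch 1 the groups overlapped. Traf2 overlaps Gm13433 on the opposite strand, and no source used here gives the strand setting of the counting. The ratio of Traf1 to Traf2 per kilobase was 1.27 to 1.44 with supernatant and 0.816 to 0.935 untreated in batch 1, 1.72 to 1.98 with supernatant and 1.4 to 1.58 untreated in batch 2, and 0.849 to 1.14 with supernatant and 0.997 to 1.06 untreated in batch 3, so the ratio was higher with supernatant without overlap in batches 1 and 2 and overlapped in batch 3.

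Birc3 and Birc2 are neighbouring genes for cIAP2 and cIAP1, which add ubiquitin to RIPK1 in the receptor complex. Birc3 had 146.7 CPM with trap and 149 and 151 CPM with mast cell supernatant in batch 1, against 116 and 120.5 CPM untreated. In batch 2 it had 126 CPM with trap and 131 CPM with mast cell supernatant, against 147 and 141 CPM untreated. In batch 3 it had 109.9 CPM with trap and 93.4 and 94.1 CPM with mast cell supernatant, against 132 and 166 CPM untreated. The groups did not overlap in any batch, with supernatant above untreated in batch 1 and below it in batches 2 and 3. The log2 fold change was 0.34 ± 0.0895 in batch 1 (adjusted p = 0.0297) and -0.59 ± 0.0888 in batch 3 (adjusted p = 0.000551), with a difference among batches (adjusted p = 0.00116). Without mast cell supernatant replicate 1 or 4, or untreated replicate 1 or 4, the batch 1 call was lost (adjusted p up to 0.261).

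Birc2 was called for mast cell supernatant alone. It had 22.9, 21.9 and 21.7 CPM with trap supernatant and 18, 19.7, 18.2, 17.8 and 19.1 CPM with mast cell supernatant, and 19.5 to 24.5 CPM untreated (median 22.7, n = 6). The mast cell supernatant libraries lay below the 3 trap libraries without overlap. The log2 fold change was -0.25 ± 0.0654 for mast cell supernatant (adjusted p = 0.0382), a call lost in 16 of 23 alternatives. Trap against mast cell supernatant gave 0.25 ± 0.0786 (adjusted p = 0.948). None of the 8 genes was called between the supernatants, where 0% of all genes were: 0 of 13061 passed in edgeR, 11 in DESeq2, and 569 had an unadjusted p under 0.05.

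Tnfaip2 encodes a TNF-inducible protein that takes part in forming thin membrane tubes between cells. It had 1185 CPM with trap and 1153 and 1312 CPM with mast cell supernatant in batch 1, against 741 and 732 CPM untreated. In batch 2 it had 476 CPM with trap and 658 CPM with mast cell supernatant, against 616 and 597 CPM untreated. In batch 3 it had 713 CPM with trap and 613 and 602 CPM with mast cell supernatant, against 905 and 996 CPM untreated. The groups did not overlap in batches 1 and 3 and overlapped in batch 2, where the supernatants fell on either side of the untreated libraries. The log2 fold change was 0.72 ± 0.114 in batch 1 (adjusted p = 0.00124), a 1.65-fold difference, and -0.56 ± 0.111 in batch 3 (adjusted p = 0.00528), with a difference among batches (adjusted p = 0.000846). Without untreated replicate 6 the batch 3 call was lost (adjusted p = 0.0921).

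Over the 3 batches, 4 of the 8 genes differed in their response (Tnf, Traf1, Birc3 and Tnfaip2), beside 5.36% of all genes. For the response in batch 1 against batch 3, 5 of the 8 were called (the same 4 and Tnfrsf1b), beside 8.67% of all genes. In all of them the response was higher in batch 1. With the batches averaged, 1 of the 8 was called for trap supernatant (Tnfrsf1a, higher), where 1.72% of all genes were, and 3 of the 8 for mast cell supernatant (Tnfrsf1a higher, Tnfrsf1b and Birc2 lower), where 4.79% were. Both averaged comparisons use the same 6 untreated libraries.

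The 250 bases before the RefSeq start of each gene were read from RefSeq sequence on GRCm38.p6. They are shown for Tnf, Traf1 and Birc3, which were called in the response over the batches, as was Tnfaip2, which is not shown. Birc2, the neighbour of Birc3, is shown as well. Per GENCODE release 21 on GRCm38, Tnf spans chr17:35199381-35202007, Traf1 chr2:34941750-34961772, Birc3 chr9:7848699-7873186 and Birc2 chr9:7818227-7837064. The RefSeq and GENCODE starts differ for some genes: the windows of Birc3 and Birc2 take in the first bases of the GENCODE gene. The window of Tnfrsf1a (chr6:125349473-125349722) lies wholly inside the GENCODE gene, which starts at 125349362. Most of the window of Tnfaip2 (chr12:111442411-111442660) lies inside its gene, which starts at 111442469. Neither is printed. The printed window of Tnf is chr17:35202008-35202257, that of Traf1 chr2:34961773-34962022, that of Birc3 chr9:7873171-7873420 and that of Birc2 chr9:7837058-7837307 (its first start), all on the minus strand. Capitals mark exact matches to 4 motifs. The NF-kB consensus GGGRNWYYCC, the AP-1 site TGANTCA and the cAMP response element TGACGTCA were searched on both strands. The TATA box TATAAA was searched on the gene's strand. Here R is A or G, W is A or T, Y is C or T, and N is any base.
Tnf: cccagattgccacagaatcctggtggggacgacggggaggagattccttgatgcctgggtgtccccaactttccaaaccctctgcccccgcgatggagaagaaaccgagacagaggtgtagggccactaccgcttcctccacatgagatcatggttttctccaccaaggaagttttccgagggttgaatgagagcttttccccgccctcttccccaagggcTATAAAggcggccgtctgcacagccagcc
Traf1: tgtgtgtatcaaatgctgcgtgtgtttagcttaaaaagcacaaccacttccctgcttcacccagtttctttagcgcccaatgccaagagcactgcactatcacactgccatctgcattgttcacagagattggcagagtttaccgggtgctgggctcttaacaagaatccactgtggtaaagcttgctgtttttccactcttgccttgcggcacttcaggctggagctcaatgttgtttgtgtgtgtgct
Birc3: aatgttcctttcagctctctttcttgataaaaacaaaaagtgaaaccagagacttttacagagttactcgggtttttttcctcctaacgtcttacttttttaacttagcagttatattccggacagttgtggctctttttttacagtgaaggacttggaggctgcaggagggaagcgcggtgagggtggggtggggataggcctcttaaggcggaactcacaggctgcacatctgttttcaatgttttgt
Birc2: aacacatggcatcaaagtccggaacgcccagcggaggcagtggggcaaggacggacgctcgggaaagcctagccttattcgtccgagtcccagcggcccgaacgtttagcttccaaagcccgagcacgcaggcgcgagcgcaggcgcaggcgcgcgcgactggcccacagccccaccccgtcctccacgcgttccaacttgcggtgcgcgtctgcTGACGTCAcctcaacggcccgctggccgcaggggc
Tnf holds TATAAA at 29 to 24 bases before the start, as do 7.59% of 32851 promoters somewhere in such a window. Birc2 holds TGACGTCA at 35 to 28 bases before its first start, as do 1.55% of promoters. None of the other 6 genes matched one of the 4 motifs. The NF-kB consensus was held by 3.9% of promoters and the AP-1 site by 6.75%. The 8 genes held 0 of either, which is near those shares. Sites outside the 250 bases or with other letters were not searched. The cores GGAAG and TGACG were searched as well and are not in capitals: 64.1% and 17.8% of promoters held them, as did 7 and 2 of the 8 genes, and TGACG overlaps TGACGTCA in Birc2.

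Other genes of the pathway were counted by role, from lists of 58 genes of which 57 were tested; Lta, a related ligand, had 0 to 9 counts a library and was not. The lists were chosen with earlier results of these data known, and their shares were not tested against those of all genes. In batch 1, 15 of the 57 passed (26.3%, beside 7.56% of all genes), 13 higher and 2 lower. In batch 3, 15 passed (26.3%, beside 8.41% of all genes), 2 higher and 13 lower. In batch 2, 2 passed (3.51%, beside 1.19% of all genes), both lower (Tnip1 and Zc3h12a). The response to supernatant differed between batch 1 and batch 3 for 23 of 57 (40.4%, beside 8.67% of all genes). For 22 of them the response was higher in batch 1. With batches averaged, 0 passed for trap supernatant (1.72% of all genes) and 3 for mast cell supernatant (5.26%, beside 4.79% of all genes), all higher (Zfp36l1, Tnfsf9 and Tnfsf14).

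Of the 10 TNF-inducible NF-kB target genes, 5 were called in batch 1, all higher, where 7.56% of all genes were, and 5 in batch 3, all lower, where 8.41% were. The response to supernatant differed between those batches for 9 of the 10, beside 8.67% of all genes. For Mmp9 the response did not differ (-0.04 ± 0.221, adjusted p = 0.939). Relb, an NF-kB subunit, had 147.5 to 158.5 CPM with supernatant and 117.3 to 121.8 CPM untreated in batch 1, and 88.5 to 102.7 CPM with supernatant and 122.8 to 136.9 CPM untreated in batch 3, with log2 fold changes of 0.36 ± 0.0786 (adjusted p = 0.0081) and -0.42 ± 0.0784 (adjusted p = 0.00299). Tnfaip8 differed by 0.31 ± 0.0967 in batch 1 (adjusted p = 0.0584) and -0.40 ± 0.0961 in batch 3 (adjusted p = 0.0146). Nfkbia, which encodes the inhibitor IkB alpha, and Ier3 were named after their values were seen: they rose by 1.25 ± 0.153 (adjusted p = 0.000491) and 2.83 ± 0.338 (adjusted p = 0.00111) in batch 1.

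Of the 20 genes of the receptor complex and of ubiquitin editing, 3 were called in batch 1 (Tab2 and Tnfaip3 higher, Tab1 lower) and 2 in batch 3 (Tab2 and Tnip1, lower), where 7.56% and 8.41% of all genes were, so the batch 3 count was near the share of all genes. Tnip1, which works with A20 to restrain NF-kB, fell by 0.70 ± 0.0995 on the log2 scale in batch 2 (adjusted p = 0.00168) and by 0.67 ± 0.0901 in batch 3 (adjusted p = 0.000214), while batch 1 gave -0.01 ± 0.0905. Tab1 fell by 0.52 ± 0.0993 in batch 1 (adjusted p = 0.00345) and had 0.31 ± 0.102 in batch 3 (adjusted p = 0.073). Tnfaip3, which encodes A20 and was named after its values were seen, had 381.2 to 446.4 CPM with supernatant and 153.5 to 155.2 CPM untreated in batch 1. The response of Otulin, a deubiquitinase, differed between batches 1 and 3 (0.44 ± 0.0994, adjusted p = 0.0102).

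Of 7 genes of Tnf mRNA turnover, 2 were called in batch 1, both higher. In batches 2 and 3, 1 was called in each, lower. Of all genes 7.56%, 1.19% and 8.41% were called, so the batch 3 count was near the share of all genes. Zfp36, whose protein binds the AU-rich element of Tnf mRNA and promotes its decay, rose by 2.40 ± 0.26 in batch 1 (adjusted p = 0.00079). There Zfp36 had 1123 to 1800 CPM in supernatant libraries, against 263.7 to 276.3 CPM untreated. It had -0.54 ± 0.236 in batch 3 (adjusted p = 0.22). Zc3h12a, an RNase that degrades cytokine mRNAs, fell by 0.62 ± 0.101 in batch 2 (adjusted p = 0.004) and by 0.32 ± 0.0916 in batch 3 (adjusted p = 0.0398). Zfp36l1 rose by 1.58 ± 0.355 in batch 1 (adjusted p = 0.0336). It was not called in batch 2 or 3, but its supernatant libraries lay above the untreated ones there as well. They had 86.3 to 231.8 CPM against 71.99 to 74.25 CPM in batch 2, and 148.5 to 159.3 CPM against 93.38 to 129.3 CPM in batch 3.

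Of 4 genes of TNF release, 2 were called in batch 1, in opposite directions, and 3 in batch 3, all lower, where 7.56% and 8.41% of all genes were. Rhbdf2, the partner that carries the TNF-releasing protease ADAM17 to the cell surface, rose by 0.41 ± 0.0861 in batch 1 (adjusted p = 0.00606) and fell by 0.50 ± 0.0851 in batch 3 (adjusted p = 0.00141). Its paralogue Rhbdf1, named after its values were seen, fell by 0.63 ± 0.181 in batch 1 (adjusted p = 0.0431). Adam17 fell by 0.40 ± 0.091 in batch 3 (adjusted p = 0.0113). Timp3, an inhibitor of ADAM17, fell in batch 3 (-1.74 ± 0.515, adjusted p = 0.0444) at 0.17 to 0.249 CPM with supernatant and 0.739 to 0.778 CPM untreated, a level of a few counts. In the cell death arm of 6 genes, 1 was called in batch 1 and 0 in batches 2 and 3. Of all genes 7.56%, 1.19% and 8.41% were, so these counts were near the share of all genes. The gene called was Cflar, rising by 0.77 ± 0.173 in batch 1 (adjusted p = 0.0232), and Ripk3 did not pass in any supernatant comparison.

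Of the 10 related ligands and receptors tested, 2 were called in batch 1 (Tnfsf9 and Tnfsf14, higher), where 7.56% of all genes were, and 4 in batch 3, where 8.41% were, with Tnfrsf11a and Tnfrsf21 higher and Cd40 and Fas lower. Tnfsf14 had a log2 fold change of 0.84 ± 0.225 in batch 1 (adjusted p = 0.03), 0.64 ± 0.204 in batch 2 (adjusted p = 0.185) and 0.63 ± 0.228 in batch 3 (adjusted p = 0.101). Fas, a death receptor, fell by 0.98 ± 0.133 in batch 3 (adjusted p = 0.000219), at 12.6 to 16.52 CPM with supernatant and 25.44 to 31.12 CPM untreated. Named after their values were seen, Tnfrsf11a, which encodes RANK, rose by 0.37 ± 0.0865 in batch 3 (adjusted p = 0.0128), Tnfrsf21 by 0.41 ± 0.122 (adjusted p = 0.044), and Cd40 fell by 0.86 ± 0.169 (adjusted p = 0.00491). Tnfrsf9 had at most 5.83 CPM in any library and passed no test of the response.

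**Figure D3:**
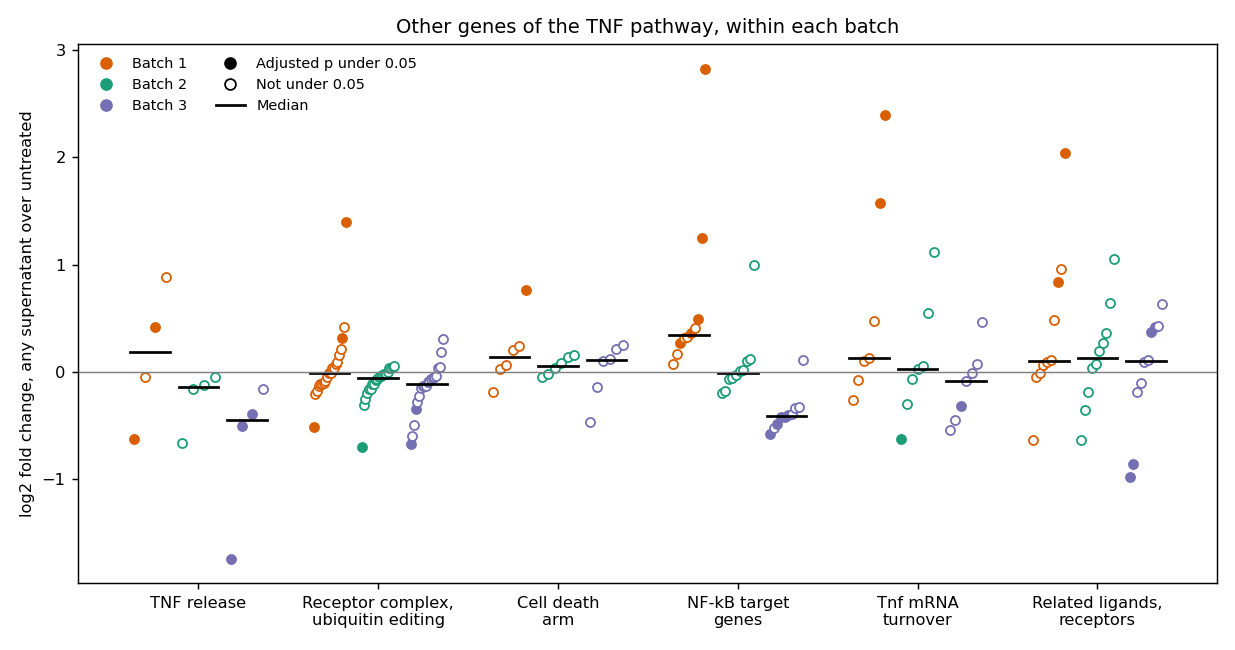
Log2 fold change of any supernatant over untreated (y axis) for the 57 tested pathway genes by role (x axis) in batches 1 to 3 (colour); filled points have an adjusted p under 0.05 and black bars are medians. All 10 NF-kB target genes are above 0 in batch 1, where 5 are called, and 9 are below 0 in batch 3, where 5 are called.

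The genes whose levels followed Tnf most closely over the 14 libraries, among 9762 with a mean of at least 5 CPM, were Csrnp1 (Pearson r of log2 CPM 0.994), Nlrp3 (0.988), Zfp36 (0.988), Pim1 (0.987) and Rgs1 (0.984). Each was higher in the 3 supernatant libraries of batch 1 than in any other library, as with Csrnp1 at 176 to 229 CPM there and 12.1 to 55.2 CPM elsewhere. For Tnfrsf1b they were Dapk1 (0.951), Syk (0.949), Klf9 (0.94), Ext1 (0.937) and Fam20c (0.935). Among the 8 genes the closest to Tnf was Tnfaip2 (0.805). The libraries share batches, so these values describe the set and were not tested.

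Mast cell transcripts were found in the supernatant libraries. The 12 mast cell markers summed to 88.3, 777 and 2081 CPM with trap supernatant in batches 1, 2 and 3, to 85.7 and 114, 1458, and 299 and 237 CPM with mast cell supernatant in those batches, and to 7.11 to 9.36 CPM untreated, where Mcpt4, Tpsb2 and Tpsab1 were at 0 in every library. The 3 lowest sums with supernatant were in batch 1, where Tnf was highest. The highest, in the batch 3 trap library, stood beside a Tnf level of 212 CPM. Neutrophil markers summed to 98.2 to 144 CPM with supernatant and 79.9 to 83.6 CPM untreated in batch 1, to 68.4 to 72.8 CPM with supernatant and 85.7 to 105 CPM untreated in batch 2, and to 182.3 to 213 CPM with supernatant and 222.5 to 226 CPM untreated in batch 3. Fibroblast markers summed to 19.2 to 29.4 CPM with supernatant and 11.8 to 15 CPM untreated in batch 1, to 147.7 to 162.5 CPM with supernatant and 139.5 to 144 CPM untreated in batch 2, and to at most 16.8 CPM in batch 3. T and B cell markers summed to at most 0.484 CPM. The part of RNA from these other cells in the levels given above was not tested, and in bulk libraries fewer cells of a type and less RNA per cell cannot be told apart.

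**Figure D4:**
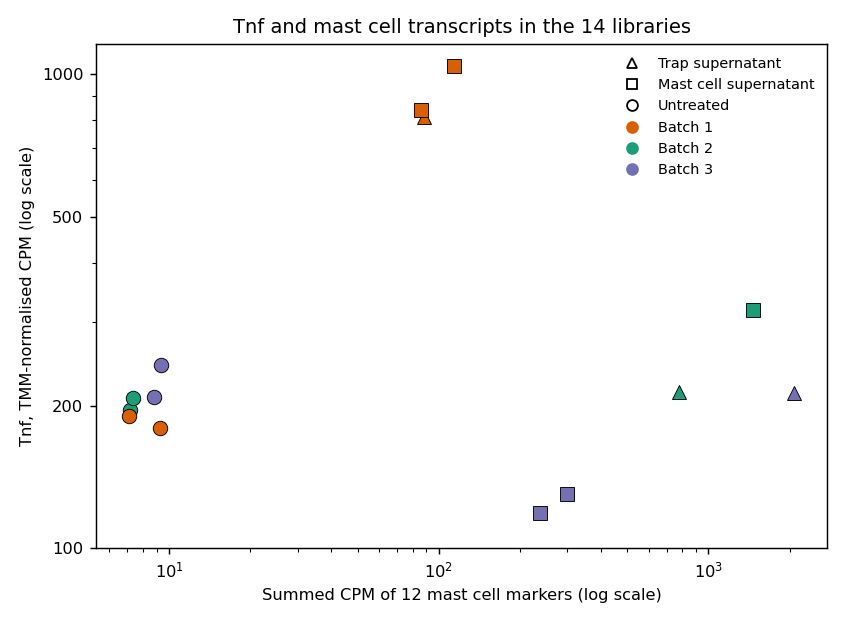
TMM-normalised CPM of Tnf (y axis, log scale) against the summed CPM of 12 mast cell markers (x axis, log scale) in the 14 libraries, by group (shape) and batch (colour). The 3 supernatant libraries of batch 1 combine the highest Tnf with marker sums of 85.7 to 114 CPM, while sums of 237 to 2081 CPM go with Tnf between 119 and 318 CPM.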

How the data were processed

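For each of the 14 libraries the authors deposited raw read counts by gene, made with featureCounts 2.0.0 on GRCm38, per the submitters' processing notes. Libraries were made with a stranded mRNA kit, per the labels' protocols. The strand setting, aligner and annotation version were not given in the sources used here. Symbols and coordinates came from GENCODE mouse release 21, and exon lengths from the union of its exons; 47224 of 47937 identifiers had a symbol. Count columns are named ctrl, mit and pmc: ctrl was read as untreated, mit as the initials of mast cell intracellular trap, and pmc, which the labels do not spell out, as the remaining group, mast cell supernatant; the number of columns and the replicate numbers match each group.

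The analysis used edgeR 4.0.16 under R 4.3.3. Genes kept by filterByExpr (13061) were scaled by TMM and fitted by quasi-likelihood with robust dispersion, with Benjamini-Hochberg adjustment over all genes and a threshold of 0.05. The group comparisons used an additive model of group and batch over all 14 libraries (9 residual degrees of freedom). The comparisons within and between batches used 6 means, of untreated and of any supernatant in each batch (8 residual degrees of freedom), so that a difference between the supernatants counts as spread. The SE is the log2 fold change divided by the square root of F. CPM values are TMM-normalised. The scripts were tested on simulated data. Total counts of 11729073 to 22720419 gave each of the 8 genes at least 188 counts in every library.

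The 8 genes, the lists and the tests were chosen with earlier results of these data known. Up to 3 genes per list were named, by smallest adjusted p over the comparisons. Replicates 1 to 3 carry batches 1 to 3 in the labels, so equal numbers belong to 1 batch. With group means subtracted, 9 same-numbered pairs correlated at 0.298 to 0.71 and 18 other pairs at -0.592 to 0.173. Alternatives were RLE scaling, no filter, DESeq2 1.42.0, limma-voom (limma 3.58.1), each library left out, no batch term, the replicate block, each batch left out and 9 means of batch by group. Promoters came from RefSeq (GRCm38.p6).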

Additional observations from a re-analysis of the deposited data

Results flagged for a closer look

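The test of the response over the 3 batches called 4 of the 8 genes, beside 5.36% of all genes. Its adjusted p (edgeR's quasi-likelihood test) was 0.00721 for Tnf, 0.000631 for Traf1, 0.00116 for Birc3 and 0.000846 for Tnfaip2. For Tnf the log2 fold changes with any supernatant were 2.28 in batch 1, 0.40 in batch 2 and -0.56 in batch 3. For the other 3 genes they were 0.34 to 0.72 in batch 1 and -0.59 to -0.38 in batch 3. Batches also differed in Lyz2 and in the mast cell marker sums given above, and the part of either in these differences was not tested. A check of the gap at either end of a group, relative to its range, set no library apart in 16 sets of 4 to 10 libraries. These were the mast cell supernatant and the untreated libraries of each of the 8 genes. The trap group, with 3 libraries, was too small for it. The batches were pooled, so differences between them widen the range. The check therefore cannot tell whether a library stood apart within its batch.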

How the results depend on the processing

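Each result was recomputed under the alternatives listed under processing. With no filter on low counts, 23931 genes were tested in place of 13061. Of these, 1620 (6.77%) were called in batch 1, 640 (2.67%) in batch 2 and 1789 (7.48%) in batch 3. For the difference in response among batches, 1498 (6.26%) were called. The main fit called 7.56%, 1.19%, 8.41% and 5.36%, so the share fell in batches 1 and 3 and rose in the others. Of the 8 genes, 2 were called in batch 2 and 0 for trap supernatant without the filter. DESeq2 called 316 genes in batch 2, 409 for trap supernatant and 11 between the supernatants, and of the 8 genes 1 in batch 2 and 2 for trap supernatant. With 9 means, 464 genes and 2 of the 8 were called in batch 2. For mast cell and trap supernatant, 62 and 15 genes (0 and 0 of the 8) were called with no batch term, 84 and 36 (1 and 0) with the replicate block on replicates 1 to 3 (9 libraries), and 231 and 88 (1 and 0) without batch 2. Chosen after seeing the data, leaving out batch 1 gave 116 genes for trap supernatant, with 1 of the 8 genes called for mast cell and 0 for trap supernatant, and leaving out batch 3 gave 1 gene between the supernatants. In these 9 libraries replicate number and batch coincide, so the block fit differs by having fewer libraries; the cause of the other changes was not tested.

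Leaving out 1 library at a time gave 449 to 751 genes for mast cell supernatant and 97 to 280 for trap supernatant. Between the supernatants it gave 0 to 3. Within batches it gave 240 to 1282 in batch 1, 19 to 333 in batch 2 and 418 to 1844 in batch 3. For differences in response it gave 235 to 1175 among batches and 501 to 1591 for batch 1 against batch 3. Among untreated libraries it gave 2751 to 4826. Of the 8 genes, 2 to 3, 0 to 2, 0 to 0, 3 to 5, 0 to 1, 2 to 6, 3 to 5, 4 to 5 and 2 to 4 were called in these comparisons, in the same order.

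All 72 results of the 8 genes in the 9 comparisons were recomputed. The 26 called results showed no change of sign in the 510 alternative values, and 72 of these were no longer called. The 46 results not called changed sign in 77 of 954 values, none of which was called, and 25 became called. Both sets include tests among the 3 batches, which have no sign and so could not count as changed. Single values are tabulated for the 49 results given in the text and figures, a choice made after these counts were seen. Of those, 9 values changed sign: Tnf without batch 1 (mast cell supernatant -0.19, trap -0.0099), and, with 1 library left out, Birc2 in batch 1 (-0.17 to 0.0083), Tnfaip2 in batch 2 (-0.35 to 0.12), Traf1 in batch 2 (-0.0018 to 0.042) and Traf2 in batch 1 (-0.00023 to 0.063). Each arm of a batch holds 2 to 3 libraries, which limits the precision of the values within batches.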
